A study of Homo sapiens with 9 samples.

Results

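The sterol and fatty acid synthesis genes described here were chosen by name from the pathway by which a cell makes cholesterol and fatty acids, not from any measured value. The list holds 33 genes, and 32 of them are among the 24344 genes of the count table analysed. The remaining gene, ACACA, the acetyl-CoA carboxylase that supplies fatty acid synthase, was not analysed here. They fall into 4 arms, namely 7 genes of the mevalonate arm, 11 genes that take squalene to cholesterol, 6 regulators of the pathway with 1 sterol carrier among them, and 8 genes that make, elongate, desaturate or activate fatty acids. All 32 passed the filter on low counts.

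Cells build cholesterol from acetyl-CoA through mevalonate, isoprenoid diphosphates, squalene and lanosterol, and the same acetyl-CoA feeds fatty acid synthesis. The sterol regulatory element binding proteins, SREBP1 and SREBP2, made from SREBF1 and SREBF2, are transcription factors held in the endoplasmic reticulum. When membrane sterol falls, the escort protein SCAP carries them to the Golgi, where they are cleaved and released to the nucleus, and when sterol is plentiful the INSIG proteins retain SCAP. SREBP2 is best known for the sterol enzymes and SREBP1 for the fatty acid enzymes, and many tumour cells keep both arms active.

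MDA-MB-231 cells, a human breast adenocarcinoma line, were treated for 48 h, and their total RNA was read by unstranded paired-end sequencing and counted per gene. Compound Kushen Injection (CKI), made from the herbs Kushen and Baituling, was given at 2.0 mg/mL, and injections of Kushen alone or Baituling alone were given at the same dilution. There were 3 libraries per treatment, which the submitters call biological replicates, and the comparisons ask how the mixture differs from each herb and how the herbs differ from each other. Libraries of untreated cells were not analysed here, so no value below is a change from the untreated state, and a single cell line was used. Below, CKI, Kushen and Baituling name the libraries of each treatment.

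The 9 libraries held 20144628 to 23782071 counts, and the lowest count of any of the 32 genes in any library was 347, of CYP51A1. Kushen replicate 1 differed most from its group, with a chi-square per gene of 6.51 and 6.85 against the other Kushen libraries, where the pairs of the other groups gave 1.70 to 4.42. Genes that mark MDA-MB-231 were high everywhere but not equal between treatments. VIM, vimentin, averaged 350.5 CPM under CKI, 584 under Kushen and 2070 under Baituling, where CPM is the count relative to the TMM-scaled library size, KRT8 averaged 527, 609 and 1279, KRT18 averaged 127, 152 and 314, and CD44 averaged 616, 644 and 904. Of the markers this line lacks, ESR1 and PGR had at most 3 and 4 counts in any library, CDH1 averaged 0.587 to 2.01 CPM and EPCAM 7.32 to 13.6 CPM. Of the markers of blood cells, PTPRC had at most 9 counts, CD3E at most 4 and HBB 0, and CD14 averaged 5.95 to 10.1 CPM, and PECAM1 was not analysed here. The part of these marker differences in the results was not tested, and with RNA from whole cultures fewer cells expressing a gene cannot be told apart from less RNA per cell.

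CKI was lower than Kushen for most of the pathway. By edgeR's quasi-likelihood test on all 14195 genes that passed the filter, 25 of the 32 genes were lower in CKI at an adjusted p under 0.05 and 0 were higher, as also by DESeq2 and at an unadjusted p under 0.05, whereas of all genes tested 20.2% were lower and 19.6% higher. The differences were small, from -0.67 to 0.06 on the log2 scale with a median of -0.25, beside 0.01 for all genes tested, and 0 of the 32 also passed a log2 fold change of 1, beside 0.197% of all genes below and 1.7% above. The fatty acid arm was lower in CKI for 8 of its 8 genes, the mevalonate arm for 6 of 7, the squalene to cholesterol arm for 7 of 11 and the regulators for 4 of 6.

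Against Baituling the picture was mixed but mostly lower in CKI. Here 23 genes were lower and 7 higher, beside 37% and 39.1% of all genes tested, with a median of -0.36 beside 0.03 for all genes and a range from -1.42 to 0.52. HMGCS1, MVK, FDPS and SREBF1 were the 4 genes that also fell past a log2 fold change of -1, beside 7.91% of all genes, and 0 passed it upwards, beside 11.2%. The mevalonate arm had the lowest median, -0.84, with 6 of 7 genes lower, and the fatty acid arm followed with -0.46 and 7 of 8 lower. The squalene to cholesterol arm had 7 of 11 lower and 3 higher (median -0.24), and the regulators 3 lower and 2 higher (median -0.05).

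Between the single herbs the 32 genes went in both directions, as all genes tested did. In Kushen 15 genes were lower and 10 higher than in Baituling, beside 36.1% and 35.6% of all genes tested, the median was -0.05 beside 0.02 for all genes, and the range ran from -0.93 to 0.57. None of the 32 passed a log2 fold change of 1 in either direction, 0 in this edgeR test and 0 by DESeq2, beside 6.73% of all genes below and 8.5% above. The mevalonate arm was lower in Kushen for 6 of 7 genes (median -0.68), whereas the squalene to cholesterol arm had 4 higher and 3 lower (median 0.01), the regulators 3 higher and 2 lower (median 0.22) and the fatty acid arm 2 higher and 4 lower (median -0.19). The 3 comparisons share libraries, so their counts are not independent of each other.

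The level at which the libraries are set to each other matters for these directions. With library totals in place of TMM (trimmed mean of M-values, the scaling that edgeR uses) the median of all genes moved up by 0.08 in CKI against Kushen, by 0.29 in CKI against Baituling and by 0.21 in Kushen against Baituling. Under library totals the median of the 32 genes was -0.17, -0.08 and 0.16 in these comparisons, so it turned positive for Kushen against Baituling. The split of higher and lower genes became 1 and 20 in CKI against Kushen, 12 and 16 in CKI against Baituling, and 17 and 12 in Kushen against Baituling. Shares of all genes in each direction were not counted under library totals, so these splits cannot be set beside them. The median of all genes was then 0.08, 0.32 and 0.23 in the same order. Under TMM and under library totals alike, the median of the 32 genes lay below that of all genes in each comparison. With library totals the mevalonate arm kept its direction, with 4, 6 and 5 of 7 genes lower. The squalene to cholesterol arm and the regulators then had more genes higher than lower in both comparisons with Baituling. With RLE scaling and by DESeq2 the median of the 32 genes was -0.26, -0.38 and -0.06, near the TMM values of -0.25, -0.36 and -0.05. Without Kushen replicate 1 the counts past the adjusted p were 24, 30 and 26 in the same order, beside 25, 30 and 25 with it. Shares of all genes were not counted without it.

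**Figure D1:**
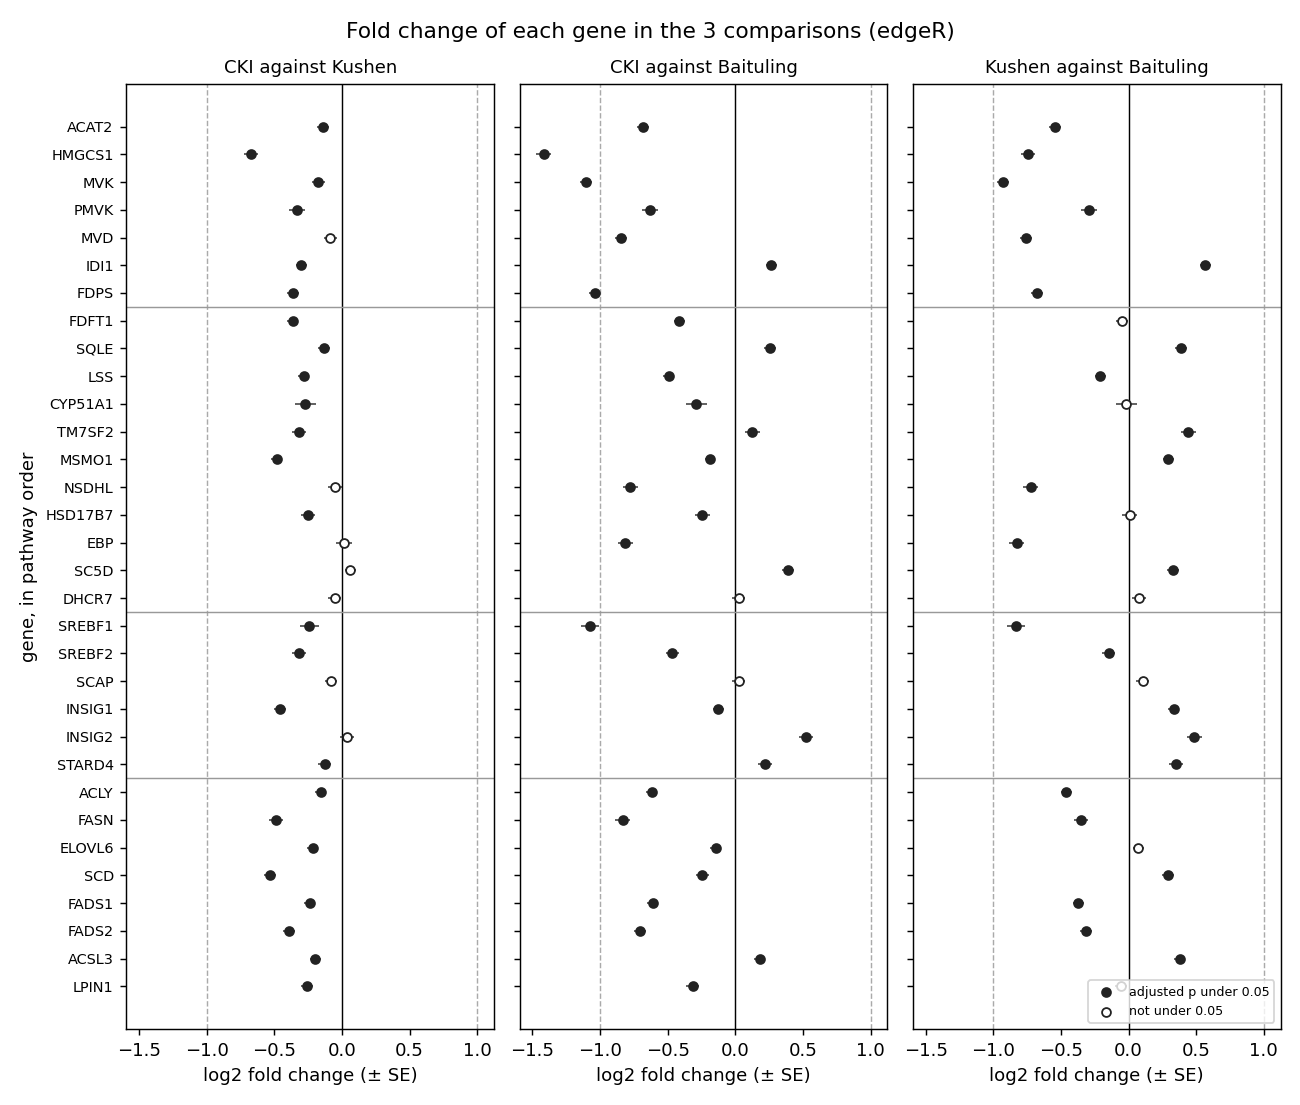
Log2 fold change of the 32 genes (rows, in pathway order, lines between arms) with its SE in the 3 comparisons (panels). Filled points have an adjusted p under 0.05, dashed lines mark log2 fold changes of -1 and 1. In the left panel the points lie from -0.67 to 0.06, while the other panels spread to both sides of 0.

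**Figure D2:**
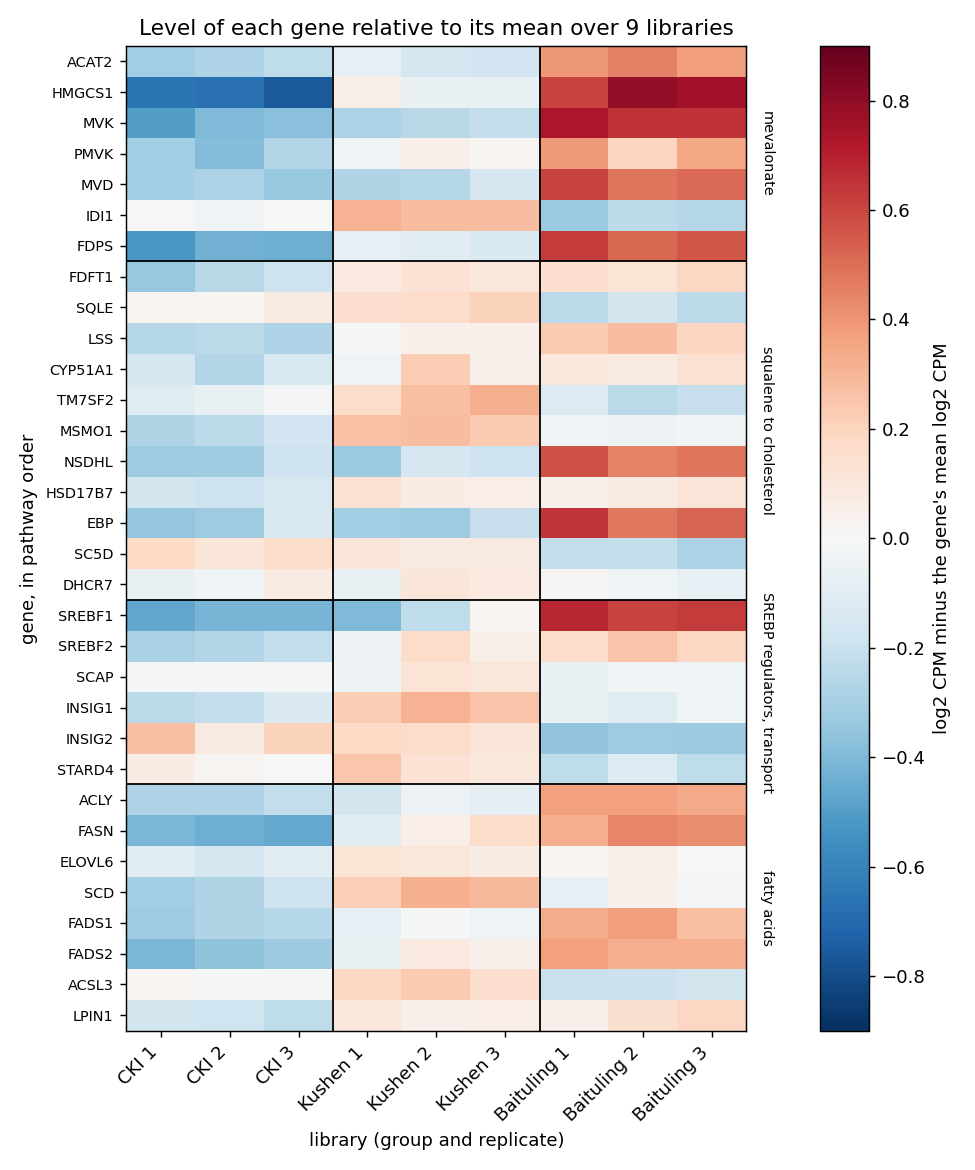
Log2 CPM of each gene (rows) in each of the 9 libraries (columns) minus that gene's mean over the 9 libraries, in colour. CKI columns are mostly blue, that is below the mean, and Baituling columns are red for HMGCS1, MVK, MVD, FDPS, NSDHL, EBP and SREBF1 and blue for IDI1, SQLE, SC5D, INSIG2 and ACSL3.

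Most genes of the mevalonate arm stood in one order, with CKI at the bottom and Baituling at the top. HMGCS1, the HMG-CoA synthase that condenses acetyl-CoA and acetoacetyl-CoA, lies on chromosome 5 (chr5:43287572-43313614, GRCh37, reverse strand). Of its 6627 exon bases, 2497 overlap a gene on the other strand that has no row in the count table. Unstranded reads from that stretch cannot be told apart, so part of its counts could belong elsewhere. HMGCS1's CPM was 110.3, 109 and 103 under CKI replicates 1 to 3, 181, 167 and 166 under Kushen and 264, 302 and 294 under Baituling, the order in which libraries are listed throughout. The 3 groups did not overlap, and each CKI library lay below every Kushen library, which lay below every Baituling library. HMGCS1's log2 fold change was -0.67 ± 0.052 (SE, adjusted p = 1.24e-08) against Kushen and -1.42 ± 0.053 (SE, adjusted p = 6.98e-15) against Baituling, or 0.375 times the Baituling level, and -0.74 ± 0.051 (SE, adjusted p = 1.24e-10) for Kushen against Baituling. This was the lowest log2 fold change of the 32 genes in both CKI comparisons, and under library totals it alone kept a log2 fold change below -1 against Baituling.

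MVK, mevalonate kinase, phosphorylates mevalonate, and lies at chr12:110011060-110035930 (GRCh37, forward strand), where 225 exon bases overlap MMAB on the other strand. MVK had 62.2, 66.8 and 67.7 CPM under CKI, 72.2, 73.9 and 75.9 under Kushen and 146, 138 and 138 under Baituling. CKI and Kushen lay close to each other and far below Baituling, with no overlap between any pair of groups. MVK's log2 fold change was -1.10 ± 0.047 (SE, adjusted p = 5.43e-14) for CKI and -0.93 ± 0.046 (SE, adjusted p = 9.96e-13) for Kushen against Baituling. Between CKI and Kushen it was -0.17 ± 0.048 (SE, adjusted p = 0.00649), a call that was lost without CKI replicate 1 (adjusted p = 0.05) and under library totals (adjusted p = 0.0799).

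FDPS, farnesyl diphosphate synthase, joins the isoprenoid units that sterols and prenylated proteins need. Its libraries held 114, 121 and 120.1 CPM under CKI, 155, 152 and 148 under Kushen and 253, 234 and 241 under Baituling. The groups were separate, with Kushen between CKI and Baituling. FDPS's log2 fold change was -0.36 ± 0.044 (SE, adjusted p = 3.48e-06) for CKI against Kushen, -1.04 ± 0.044 (SE, adjusted p = 5.51e-14) for CKI against Baituling and -0.68 ± 0.043 (SE, adjusted p = 4.36e-11) for Kushen against Baituling. Its exons overlap RUSC1-AS1 on the other strand over 693 bases and 8 pseudogenes are annotated, so part of its counts could belong elsewhere.

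MVD, the decarboxylase that makes isopentenyl diphosphate, had its libraries in that order too, but only its differences from Baituling passed the test. MVD was at 81.3, 82.5 and 79.2 CPM under CKI, 83.2, 84.2 and 90.6 under Kushen and 153, 140.4 and 143 under Baituling. CKI and Kushen lay side by side without overlap, with a log2 fold change of -0.09 (adjusted p = 0.166), and both lay below every Baituling library. Against Baituling it was -0.84 ± 0.047 (SE, adjusted p = 3.87e-12) for CKI and -0.76 ± 0.047 (SE, adjusted p = 2.71e-11) for Kushen.

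The other 3 genes of the arm were ACAT2, PMVK and IDI1. ACAT2, the cytosolic thiolase that starts the arm, and PMVK, phosphomevalonate kinase, were lower in CKI and in Kushen than in Baituling, with log2 fold changes of -0.68 and -0.54 for ACAT2 and -0.63 and -0.29 for PMVK, the last with an adjusted p of 0.203 under library totals. Against Kushen PMVK was lower in CKI (-0.33, adjusted p = 0.000208). ACAT2 was too (-0.14, adjusted p = 0.0182), but its call was lost under library totals (-0.06, adjusted p = 0.272) and without CKI replicate 1 (adjusted p = 0.0867), CKI replicate 2 (adjusted p = 0.0614) or Kushen replicate 1 (adjusted p = 0.0631). IDI1, the isomerase of isopentenyl diphosphate, was higher in CKI and Kushen than in Baituling, against the rest of its arm. IDI1 had 266, 261 and 267 CPM under CKI, 332, 323 and 324 under Kushen and 211, 226 and 223 under Baituling. Kushen was highest and Baituling lowest with no overlap, and the log2 fold change was -0.30 ± 0.04 (SE, adjusted p = 8.52e-06) for CKI against Kushen, 0.27 ± 0.04 (SE, adjusted p = 7.04e-06) for CKI against Baituling and 0.57 ± 0.04 (SE, adjusted p = 1.98e-10) for Kushen against Baituling. IDI1 falls outside the rule for values per library and was chosen after its values were seen.

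The promoters of the 2 genes of this arm with the lowest log2 fold changes in CKI against Baituling are shown for the CCAAT boxes they hold, the letters bound by NF-Y, a factor known to act beside SREBP at many sterol genes. Each sequence is the 250 bases before a RefSeq start site on GRCh38.p14, 5′ to 3′ on the gene's strand (chr5:43313413-43313662 for HMGCS1, reverse, 1 of its 2 start sites in the table, and chr12:109573544-109573793 for MVK, forward). Capitals mark CCAAT, which reads ATTGG on the other strand.
HMGCS1: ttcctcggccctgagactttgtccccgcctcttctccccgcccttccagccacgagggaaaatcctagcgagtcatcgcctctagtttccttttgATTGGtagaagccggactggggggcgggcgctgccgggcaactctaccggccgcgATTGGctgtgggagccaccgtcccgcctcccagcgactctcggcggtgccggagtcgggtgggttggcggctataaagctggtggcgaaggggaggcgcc
MVK: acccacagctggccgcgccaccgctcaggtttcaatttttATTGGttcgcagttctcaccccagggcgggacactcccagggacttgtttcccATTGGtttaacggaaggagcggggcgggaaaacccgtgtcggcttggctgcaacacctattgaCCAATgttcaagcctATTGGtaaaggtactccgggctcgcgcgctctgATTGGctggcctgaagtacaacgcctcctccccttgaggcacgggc
HMGCS1 has 2 such boxes and MVK 5. Elsewhere in the arm FDPS and MVD have 3 each and PMVK has 0, all lower in CKI than in Baituling. IDI1, which was higher, has 3 in its window with most boxes. A link between the boxes and the levels was not tested. For HMGCS1 the window with most boxes was printed, and the window of its other start site held only GC boxes and no CCAAT box.

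**Figure D3:**
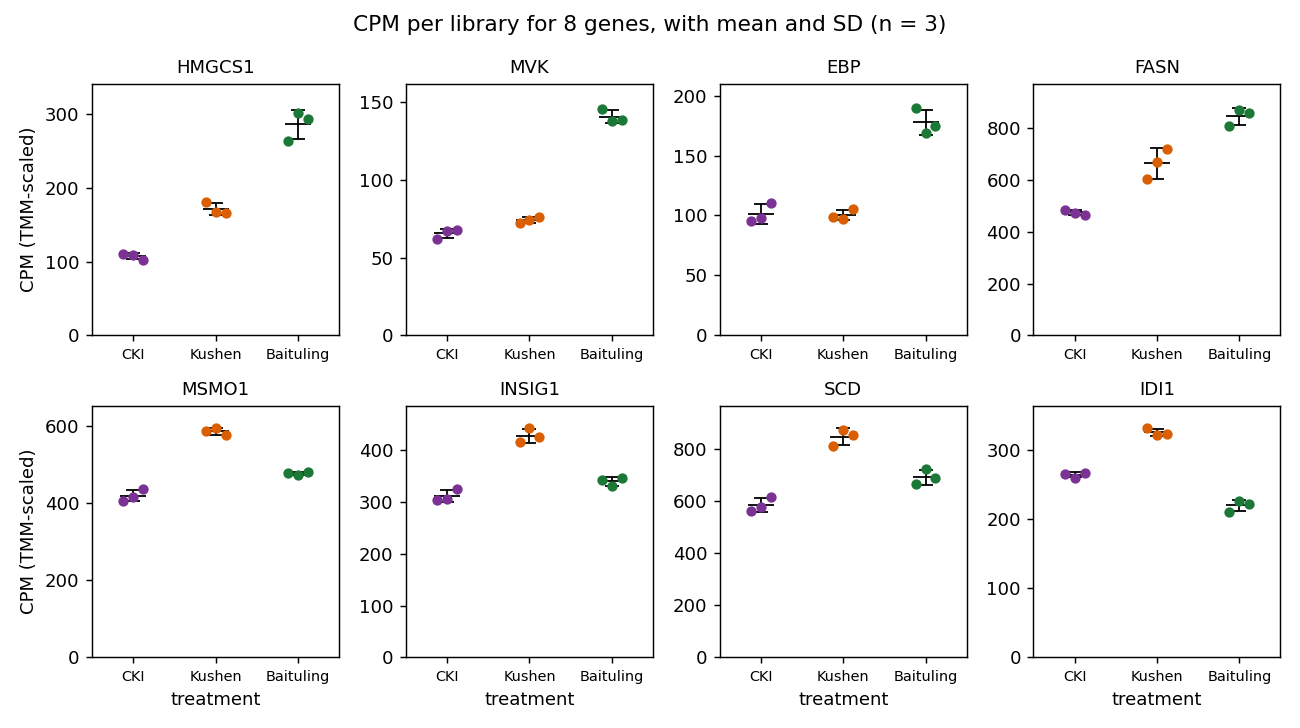
CPM per library (points) with mean and SD (bars, n = 3) of 8 genes in CKI, Kushen and Baituling, on axes that start at 0. In the upper row (HMGCS1, MVK, EBP, FASN) Baituling is highest, and in the lower row (MSMO1, INSIG1, SCD, IDI1) Kushen is highest.

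From squalene to cholesterol the genes did not move as one. MSMO1, the methylsterol monooxygenase that removes methyl groups after lanosterol, lies at chr4:166248819-166264316 (GRCh37, forward strand). It was at 407, 418 and 436 CPM under CKI, 589, 595 and 578 under Kushen and 479.6, 474 and 482 under Baituling. CKI was lowest and Kushen highest, and no pair of groups overlapped. MSMO1's log2 fold change was -0.48 ± 0.039 (SE, adjusted p = 2.1e-08) for CKI against Kushen and 0.29 ± 0.039 (SE, adjusted p = 1.38e-06) for Kushen against Baituling, and for CKI against Baituling it was -0.19 ± 0.039 (SE, adjusted p = 0.000252), which turned to 0.10 under library totals (adjusted p = 0.0165).

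FDFT1, squalene synthase, makes the first step committed to sterols. Its CPM was 341, 362 and 378 under CKI, 458, 471 and 462 under Kushen and 479.6, 469.6 and 490.2 under Baituling. CKI lay below both single herbs, and Kushen and Baituling overlapped. FDFT1's log2 fold change was -0.36 ± 0.043 (SE, adjusted p = 2.14e-06) against Kushen and -0.41 ± 0.043 (SE, adjusted p = 3.71e-08) against Baituling, while Kushen against Baituling gave -0.05 (adjusted p = 0.311), which turned to 0.16 under library totals (adjusted p = 0.000791).

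NSDHL and EBP, a dehydrogenase and an isomerase of the later sterols, made a different pattern. NSDHL was at 81.4, 81.4 and 89.5 CPM under CKI, 80.8, 91.5 and 89.4 under Kushen and 151, 139 and 142 under Baituling. EBP was at 95.6, 97.5 and 111 CPM under CKI, 98.4, 97.4 and 105 under Kushen and 189.6, 169 and 175 under Baituling. For both genes CKI and Kushen overlapped, and every one of their libraries lay below every Baituling library. Against Baituling the log2 fold change of NSDHL was -0.78 ± 0.054 (SE, adjusted p = 1.02e-10) in CKI and -0.72 ± 0.054 (SE, adjusted p = 4.03e-10) in Kushen, and that of EBP was -0.81 ± 0.057 (SE, adjusted p = 1.04e-10) and -0.83 ± 0.057 (SE, adjusted p = 1.14e-10). Between CKI and Kushen neither passed the test (-0.05, adjusted p = 0.476 for NSDHL and 0.01, adjusted p = 0.865 for EBP).

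The other 7 genes of this arm were mixed. LSS, lanosterol synthase, was lower in CKI than in Kushen (-0.28, adjusted p = 1.79e-05) and Baituling (-0.49, adjusted p = 1.14e-09), and lower in Kushen than in Baituling with a log2 fold change of -0.21, which became 0.0024 under library totals (adjusted p = 0.956). CYP51A1, the demethylase of lanosterol, and HSD17B7, a sterol keto reductase, were lower in CKI than in Kushen (-0.27 and -0.25) and Baituling (-0.29 and -0.24) and did not pass the test between the single herbs (-0.02, adjusted p = 0.854 and 0.01, adjusted p = 0.907). Under library totals the difference of CKI from Baituling was -7e-04 for CYP51A1 (adjusted p = 0.994) and 0.04 for HSD17B7 (adjusted p = 0.473), that between the herbs was 0.19 and 0.22, and CYP51A1 lost its call against Kushen without Kushen replicate 2 (adjusted p = 0.0581). HSD17B7 has a near copy, HSD17B7P2, which held 839 counts over the 9 libraries, and the exons of CYP51A1 overlap those of AKAP9 on the other strand.

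SQLE, squalene epoxidase, and TM7SF2, a sterol reductase, were highest in Kushen. Their log2 fold changes for Kushen against Baituling were 0.39 (adjusted p = 2.3e-07) and 0.44 (adjusted p = 6.01e-07), and for CKI against Kushen -0.13 (adjusted p = 0.0205) and -0.32 (adjusted p = 0.00011). CKI was also above Baituling for SQLE (0.26, adjusted p = 4.15e-05). TM7SF2 passed that test by little (0.12, adjusted p = 0.0491), and its call was lost without CKI replicates 2 or 3, Kushen replicate 2 or Baituling replicates 2 or 3 (adjusted p 0.0608 to 0.186), by DESeq2 (adjusted p = 0.136), with RLE scaling (adjusted p = 0.0943) and with no filter (adjusted p = 0.0901). The SQLE call against Kushen was lost under library totals (-0.06, adjusted p = 0.302) and without CKI replicate 1 (adjusted p = 0.0701) or 2 (adjusted p = 0.0833). SC5D, a sterol desaturase, was higher in CKI (0.39, adjusted p = 8.89e-08) and Kushen (0.33, adjusted p = 1.22e-06) than in Baituling, and CKI against Kushen gave 0.06 (adjusted p = 0.247), or 0.14 under library totals (adjusted p = 0.0134). DHCR7, which makes cholesterol in the last step of its branch, passed no test, with log2 fold changes of -0.05, 0.03 and 0.08. Under library totals it was higher in CKI and in Kushen than in Baituling (0.31 and 0.29), and without Kushen replicate 1 it was higher in Kushen than in Baituling (0.13, adjusted p = 0.0128).

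The promoter of MSMO1, the gene of this arm with the highest level per exon length, is shown for its run of CCAAT boxes (chr4:165327419-165327668, GRCh38.p14, forward strand, capitals as above).
MSMO1: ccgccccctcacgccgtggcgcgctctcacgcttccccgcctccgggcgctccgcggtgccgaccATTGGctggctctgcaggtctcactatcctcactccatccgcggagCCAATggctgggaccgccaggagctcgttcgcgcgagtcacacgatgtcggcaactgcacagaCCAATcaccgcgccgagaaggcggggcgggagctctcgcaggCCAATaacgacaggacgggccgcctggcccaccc
It holds 4 boxes, while NSDHL holds 5 and EBP 3 in the windows searched.

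The regulators divided in the same comparisons. SREBF1, the gene of SREBP1, lies at chr17:17713713-17740316 (GRCh37, reverse strand), and 556 of its exon bases overlap RAI1 on the other strand. SREBF1 was at 107, 110.4 and 110.4 CPM under CKI, 112, 126 and 149.6 under Kushen and 236, 225 and 228 under Baituling. Kushen spread widely (129 ± 18.9 CPM, SD, n = 3) with its lowest library just above CKI, and both groups lay far below Baituling. SREBF1's log2 fold change was -0.24 ± 0.069 (SE, adjusted p = 0.0088) for CKI against Kushen, -1.07 ± 0.069 (SE, adjusted p = 2.76e-11) for CKI against Baituling and -0.83 ± 0.068 (SE, adjusted p = 1.56e-09) for Kushen against Baituling.

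SREBF2, the gene of SREBP2, was at 225, 229 and 236 CPM under CKI, 266, 308 and 285 under Kushen and 309, 329.7 and 314 under Baituling. CKI was below both single herbs, and the highest Kushen library lay just under the lowest of Baituling. SREBF2's log2 fold change was -0.32 ± 0.049 (SE, adjusted p = 5.01e-05) against Kushen and -0.46 ± 0.049 (SE, adjusted p = 5.66e-08) against Baituling. Kushen against Baituling gave -0.15 ± 0.049 (SE, adjusted p = 0.0117), but 0.06 under library totals (adjusted p = 0.215), and the call was lost without Kushen replicate 1 (adjusted p = 0.0603) or Baituling replicate 2 (adjusted p = 0.0597).

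INSIG1, which holds SCAP in the endoplasmic reticulum and is itself a target of SREBP, lies at chr7:155089486-155101945 (GRCh37, forward strand). INSIG1 was at 303, 306 and 325 CPM under CKI, 415, 442 and 425 under Kushen and 341, 330.1 and 346 under Baituling. Kushen was highest, CKI lowest, and the groups did not overlap. INSIG1's log2 fold change was -0.46 ± 0.042 (SE, adjusted p = 1.01e-07) for CKI against Kushen and 0.33 ± 0.042 (SE, adjusted p = 7.46e-07) for Kushen against Baituling. For CKI against Baituling it was -0.12 ± 0.042 (SE, adjusted p = 0.0123), a difference that turned to 0.16 under library totals (adjusted p = 0.00068) and whose call was lost with at least 10 counts asked of every library (adjusted p = 0.0792) and without CKI replicate 1 (adjusted p = 0.0584) or 2 (adjusted p = 0.0548).

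INSIG2, the other INSIG gene, was at 71.2, 62.2 and 67.9 CPM under CKI, 66.7, 66 and 63.7 under Kushen and 46, 47.2 and 47 under Baituling. CKI and Kushen overlapped and both lay above Baituling, the reverse of SREBF1. INSIG2's log2 fold change was 0.52 ± 0.054 (SE, adjusted p = 3.72e-08) for CKI and 0.49 ± 0.054 (SE, adjusted p = 1.33e-07) for Kushen against Baituling, and 0.04 (adjusted p = 0.61) between CKI and Kushen. SCAP, the escort protein of the SREBPs, was at 147, 147 and 147 CPM under CKI, 144, 162 and 160 under Kushen and 142, 146 and 145 under Baituling. SCAP passed none of the 3 tests as fitted here, with -0.08 (adjusted p = 0.183), 0.03 (adjusted p = 0.631) and 0.10 (adjusted p = 0.0511) in the 3 comparisons, but without Kushen replicate 1, its lowest Kushen library, it was lower in CKI than in Kushen (-0.13, adjusted p = 0.0132) and higher in Kushen than in Baituling (0.16, adjusted p = 0.00196). Kushen was also higher than Baituling for SCAP with at least 10 counts asked of every library (0.14, adjusted p = 0.0116) and in a fit of only those 2 groups (0.12, adjusted p = 0.0455). Under library totals SCAP was higher in CKI and in Kushen than in Baituling, by 0.31 in both.

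STARD4, a cytosolic carrier of cholesterol, was at 84.3, 82.1 and 80.9 CPM under CKI, 95.6, 88.4 and 86.2 under Kushen and 68.7, 74.5 and 68.8 under Baituling. Kushen was highest and Baituling lowest, with no overlap between groups. STARD4's log2 fold change was 0.22 ± 0.051 (SE, adjusted p = 0.000593) for CKI and 0.35 ± 0.051 (SE, adjusted p = 4.26e-06) for Kushen against Baituling. Between CKI and Kushen it was -0.13 ± 0.049 (SE, adjusted p = 0.0447), a call that was lost under library totals (-0.05, adjusted p = 0.441), with at least 10 counts asked of every library (adjusted p = 0.06), in a fit of only the 2 groups compared (adjusted p = 0.0547), and without any 1 of the CKI libraries, Kushen replicate 1 or 2, or Baituling replicate 3 (adjusted p 0.0521 to 0.19).

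Of the promoters searched, only that of SREBF2 holds TCACNCCAC, a form of the sterol regulatory element, the site SREBPs bind. Other forms were not searched. The SREBF2 promoter is shown for this match, and that of INSIG1 because the gene is known to answer to SREBP. Both are on GRCh38.p14, forward strand, at chr22:41832855-41833104 and chr7:155297628-155297877. Capitals mark the element TCACNCCAC and the CCAAT box.
SREBF2: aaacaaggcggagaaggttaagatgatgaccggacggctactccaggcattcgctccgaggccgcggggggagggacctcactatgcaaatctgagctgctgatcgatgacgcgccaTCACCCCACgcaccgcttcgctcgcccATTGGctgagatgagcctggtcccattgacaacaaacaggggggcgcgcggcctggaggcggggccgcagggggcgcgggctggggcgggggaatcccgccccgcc
INSIG1: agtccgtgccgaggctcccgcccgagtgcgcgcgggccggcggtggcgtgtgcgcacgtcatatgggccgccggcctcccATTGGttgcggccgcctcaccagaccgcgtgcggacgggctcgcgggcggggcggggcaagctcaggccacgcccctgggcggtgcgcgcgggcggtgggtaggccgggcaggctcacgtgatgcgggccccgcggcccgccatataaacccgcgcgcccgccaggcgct
In SREBF2 the element lies at -133 to -125 from the start site with 1 CCAAT box downstream at -106 to -102. INSIG1 has 1 CCAAT box and no match to the element in this window.

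Motifs were searched on both strands, with overlapping matches counted separately, in windows of 250 bases before to 50 after each RefSeq start site. Of the 32 genes 28 had a window, and ACAT2, FDFT1, SQLE and FASN had none. The element TCACNCCAC was in 1 of 28 genes, 3.57%, beside 1.48% of the 11281 tested genes with a window. The E-box CACGTG was in 4, 14.3%, beside 12.1%. The CCAAT box was in 20, 71.4%, beside 42.9%, and the GC box GGGCGG in 27, 96.4%, beside 75.8%. By arm, CCAAT was in 8 of 9 genes from squalene to cholesterol, 5 of 6 of the mevalonate arm, 4 of 7 of the fatty acid arm and 3 of 6 regulators, and SREBF1, SCAP and INSIG2 were the regulators with 0. These are matches of letters, with no test. Only this form of the sterol regulatory element was searched, so a gene without it cannot be said to lack a site for SREBPs.

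The fatty acid arm was lower in CKI than in Kushen throughout. FASN, fatty acid synthase, which builds palmitate, lies at chr17:80036214-80056170 (GRCh37, reverse strand). FASN was at 482, 474 and 466 CPM under CKI, 601, 669 and 719 under Kushen and 806, 869 and 858 under Baituling. The groups stood apart with CKI lowest and Baituling highest, and Kushen spread most (663 ± 59.2 CPM, SD, n = 3). FASN's log2 fold change was -0.48 ± 0.053 (SE, adjusted p = 8.54e-07) for CKI against Kushen, -0.83 ± 0.053 (SE, adjusted p = 2.42e-11) for CKI against Baituling and -0.35 ± 0.052 (SE, adjusted p = 6.86e-06) for Kushen against Baituling.

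SCD, the desaturase that makes oleate, lies at chr10:102106990-102124583 (GRCh37, forward strand). SCD was at 562, 578 and 613 CPM under CKI, 810, 872 and 854 under Kushen and 664, 721 and 689 under Baituling. Kushen was highest and CKI lowest with no overlap, so SCD and FASN had different highest groups. SCD's log2 fold change was -0.53 ± 0.045 (SE, adjusted p = 3.64e-08) for CKI against Kushen and 0.29 ± 0.045 (SE, adjusted p = 1.01e-05) for Kushen against Baituling, and for CKI against Baituling it was -0.24 ± 0.045 (SE, adjusted p = 7.57e-05), which turned to 0.04 under library totals (adjusted p = 0.334).

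ACLY, the citrate lyase that supplies cytosolic acetyl-CoA to both pathways, was at 415, 416 and 432 CPM under CKI, 448, 486 and 473 under Kushen and 649, 649 and 637 under Baituling. The groups did not overlap, with CKI lowest and Baituling far above the other two. ACLY's log2 fold change was -0.62 ± 0.041 (SE, adjusted p = 4.37e-11) for CKI and -0.46 ± 0.041 (SE, adjusted p = 4.61e-09) for Kushen against Baituling, and -0.16 ± 0.041 (SE, adjusted p = 0.00447) between CKI and Kushen, or -0.08 under library totals (adjusted p = 0.0733). FADS2, the desaturase that starts the synthesis of polyunsaturated fatty acids, was at 306, 316 and 325 CPM under CKI, 391, 433 and 420.5 under Kushen and 526, 510 and 509.7 under Baituling. Its groups were in the same order without overlap, with log2 fold changes of -0.39 ± 0.044 (SE, adjusted p = 1.2e-06), -0.71 ± 0.044 (SE, adjusted p = 1.8e-11) and -0.31 ± 0.044 (SE, adjusted p = 2.56e-06) for CKI against Kushen, CKI against Baituling and Kushen against Baituling. FADS1, the next desaturase, differed by -0.24, -0.61 and -0.37, past the test in all 3. FADS1 and FADS2 lie on opposite strands and share 490 exon bases, so unstranded counts in that stretch cannot be told apart.

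ACSL3, which activates long-chain fatty acids, was at 146, 143 and 143 CPM under CKI, 165, 170 and 161 under Kushen and 126, 127 and 129 under Baituling. Kushen was highest and Baituling lowest without overlap, as for IDI1. ACSL3's log2 fold change was -0.20 ± 0.04 (SE, adjusted p = 0.000637) for CKI against Kushen, 0.18 ± 0.041 (SE, adjusted p = 0.000495) for CKI against Baituling and 0.38 ± 0.041 (SE, adjusted p = 7.68e-08) for Kushen against Baituling. ELOVL6, the elongase of palmitate, and LPIN1, a phosphatidate phosphatase, were lower in CKI than in Kushen (-0.22, adjusted p = 0.000287 and -0.26, adjusted p = 0.000144) and Baituling (-0.14, adjusted p = 0.00333 and -0.32, adjusted p = 3.18e-06), and the single herbs did not pass the test (0.07, adjusted p = 0.117 and -0.06, adjusted p = 0.265). Under library totals ELOVL6 was higher in CKI than in Baituling by 0.14 (adjusted p = 0.00339), LPIN1 was at -0.03 (adjusted p = 0.589), and both were higher in Kushen than in Baituling by 0.28 and 0.15. ELOVL6 was higher in Kushen than in Baituling also with at least 10 counts asked of every library (0.10, adjusted p = 0.0221).

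**Figure D4:**
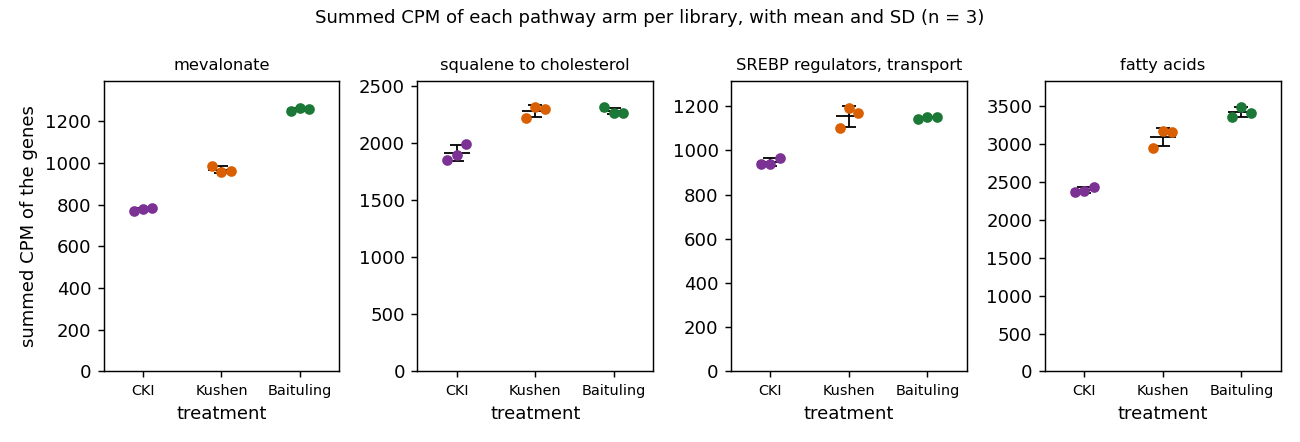
Summed CPM (TMM-scaled) of the genes of each arm per library (points) with mean and SD (bars, n = 3), on axes that start at 0. The mevalonate arm sums to 769.9 to 781 under CKI, 957 to 985 under Kushen and 1248 to 1263 under Baituling, and in the middle panels Kushen and Baituling overlap above CKI, an order that is lost there under library totals.

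Summed over each arm under TMM, CKI was the lowest group in all 4, but under library totals in only 2. The fatty acid arm summed to 2364 to 2436 CPM under CKI, 2951 to 3167 under Kushen and 3363 to 3492 under Baituling, and the mevalonate arm showed the same order without overlap. From squalene to cholesterol the sums were 1853 to 1987, 2217 to 2317 and 2260 to 2312, and for the regulators 937 to 967, 1100 to 1193 and 1144 to 1152, so Kushen and Baituling overlapped in both. Under library totals the squalene to cholesterol sums were 2037 to 2137 under CKI, 2321 to 2375 under Kushen and 2027 to 2037 under Baituling, and those of the regulators 1019 to 1040, 1151 to 1224 and 1003 to 1034, so CKI lay at or above Baituling in the first and overlapped it in the second. CKI stayed lowest in the mevalonate arm (839.8 to 846 beside 981.5 to 1031 and 1095 to 1133) and in the fatty acid arm (2588 to 2620 beside 3088 to 3247 and 2951 to 3132), and in the last Kushen and Baituling overlapped. These sums are led by the genes with most counts, and they carry no test.

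Levels of different genes were set beside each other only after dividing CPM by exon length in kilobases. That length joins the exons of all annotated transcripts of a gene. It can exceed the length of the transcripts these cells make, so the order of genes is approximate. Over the 9 libraries MSMO1 was highest with 174 CPM per kilobase and SCD next with 135, and INSIG1 and ACLY followed with 98.4 and 98.3, of which INSIG1 led under CKI and Kushen and ACLY under Baituling. CYP51A1 was lowest with 4.34 and HSD17B7 next with 7.77. The regulators SREBF2 (34.5), SCAP (23.7), SREBF1 (19.0) and INSIG2 (15.1) lay beneath FASN (70.9), EBP (71.5), IDI1 (63.0) and DHCR7 (60.9). SREBF1 went from 27.9 ± 0.707 CPM per kilobase in Baituling to 13.3 ± 0.25 in CKI (SD, n = 3), and SREBF2 from 39.4 ± 1.35 to 28.6 ± 0.722. For INSIG1 and INSIG2 the levels were 85.3 ± 3.2 and 17 ± 1.16 under CKI, 117 ± 3.74 and 16.6 ± 0.395 under Kushen, and 93 ± 2.27 and 11.8 ± 0.15 under Baituling. Exons of ACAT2, IDI1 and STARD4 overlap TCP1, IDI2-AS1 and STARD4-AS1 on the other strand, and those of TM7SF2 and FADS2 overlap VPS51 and FEN1 on the same strand, so counts there cannot be told apart. Other genes overlap, on the other strand, genes with no row in the count table. These overlaps span 731 exon bases of SREBF2, 570 of LSS, 403 of ACSL3, 240 of ELOVL6 and 217 of FDFT1. They span 156 of ACLY, 115 of LPIN1 and 72 of SCAP.

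**Figure D5:**
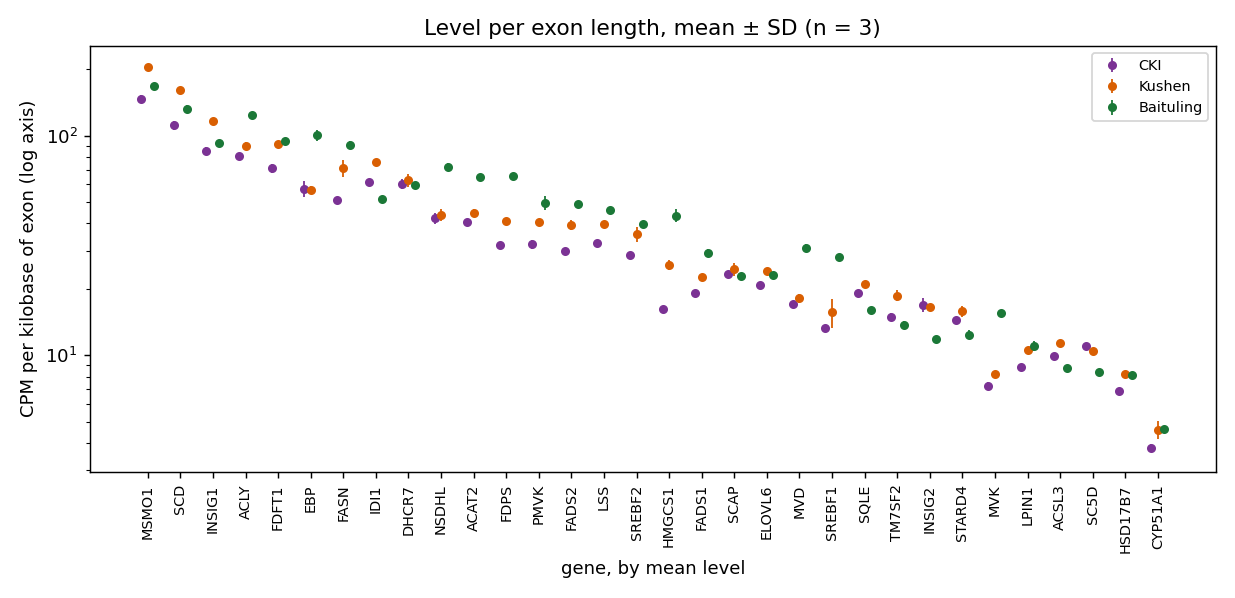
CPM per kilobase of exon (log axis) of the 32 genes, mean and SD (n = 3) for each treatment, ordered by the mean over all libraries. MSMO1 and SCD lead and CYP51A1 is last, and green Baituling points stand clear above the others for HMGCS1, MVK, MVD, SREBF1, NSDHL and EBP.

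Lists of 59 other genes of lipid metabolism, in 7 groups, were counted in the same test, and all passed the filter. Their counts stand beside shares of all genes tested of 39.1% higher and 37% lower in CKI than in Baituling, 35.6% and 36.1% in Kushen than in Baituling, and 19.6% and 20.2% in CKI than in Kushen. Of 6 LXR targets and sterol efflux genes, which answer to oxysterols, 5 were higher and 1 lower in CKI than in Baituling, 5 and 1 in Kushen than in Baituling, and 2 higher and 0 lower in CKI than in Kushen, with 0 lower also by DESeq2 and at an unadjusted p under 0.05 (median 0.37 in CKI against Baituling, beside 0.03 for all genes). MYLIP, the ubiquitin ligase that degrades lipoprotein receptors, was at 28.9 ± 1.91 CPM under CKI, 16.3 ± 0.955 under Kushen and 9.16 ± 0.698 under Baituling (SD, n = 3), with log2 fold changes of 0.82 ± 0.073 (SE, adjusted p = 7.04e-08) for CKI against Kushen and 1.66 ± 0.083 (SE, adjusted p = 6.61e-13) for CKI against Baituling. ABCG1, a sterol exporter, was at 2.23 ± 0.127, 1.13 ± 0.0626 and 0.205 ± 0.144 CPM, and its log2 fold change against Baituling was 3.37 (adjusted p = 3e-08) in CKI, on as few as 1 count in a Baituling library. ABCA1 of the same list went the other way, at -0.49 (adjusted p = 1.94e-05) in CKI and -0.48 (adjusted p = 3.14e-05) in Kushen against Baituling.

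Of 9 genes that cleave or carry SREBPs or serve the sterol-regulated degradation, 0 were higher by edgeR and DESeq2 (1 by edgeR at an unadjusted p under 0.05) and 6 lower in CKI than in Kushen, 5 higher and 1 lower in CKI than in Baituling, and 6 and 1 in Kushen than in Baituling (median 0.17 in CKI against Baituling). SEC24D, a coat protein of the vesicles that leave the endoplasmic reticulum, was higher in CKI (0.70, adjusted p = 4.41e-11) and in Kushen (0.86, adjusted p = 2.63e-12) than in Baituling, and ERLIN1, an endoplasmic reticulum lipid raft protein, was lower in both (-0.48, adjusted p = 4.45e-09 and -0.24, adjusted p = 3.91e-05). Of 8 genes of sterol trafficking and esterification, 3 were higher and 2 lower in CKI than in Baituling, 3 and 3 in Kushen than in Baituling, and 2 and 1 in CKI than in Kushen (median 0.03 in CKI against Baituling). TMEM97, a protein that binds NPC1, was at 39.8 ± 0.88, 46.1 ± 0.823 and 90.7 ± 2.83 CPM (-1.19, adjusted p = 2.45e-14 for CKI against Baituling), while NPC1, which exports cholesterol from lysosomes, was at 261 ± 1.42, 245 ± 12.6 and 164 ± 5.28 CPM (0.67, adjusted p = 4.49e-11).

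Of 10 genes of the other isoprenoid branches, 4 were higher and 5 lower in CKI than in Baituling, the same numbers in Kushen than in Baituling, and 1 and 3 in CKI than in Kushen (median -0.34 in CKI against Baituling). All genes tested gave 39.1% higher and 37% lower, 35.6% and 36.1%, and 19.6% and 20.2% in these comparisons. GGPS1, geranylgeranyl diphosphate synthase, was higher in CKI than in Baituling (0.69, adjusted p = 1.84e-10), and RABGGTB, a subunit of the enzyme that prenylates Rab proteins, had the opposite sign (-0.64, adjusted p = 1.01e-09). Of 14 further genes of fatty acid synthesis, elongation and activation, 0 were higher by edgeR, also at an unadjusted p under 0.05, and by DESeq2, and 6 were lower in CKI than in Kushen, 4 and 8 in CKI than in Baituling, and 6 and 6 in Kushen than in Baituling (median -0.12 in CKI against Baituling). In CKI against Baituling, SLC25A1, the carrier that brings citrate out of mitochondria, fell (-0.83, adjusted p = 2.65e-11) and ACSL1, an acyl-CoA synthetase, rose (0.88, adjusted p = 2.1e-12).

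Of 6 glycerolipid genes 3 were higher and 3 lower in CKI than in Baituling, 3 and 2 in Kushen than in Baituling, and 2 and 2 in CKI than in Kushen (median -0.06 in CKI against Baituling), beside 39.1% and 37%, 35.6% and 36.1%, and 19.6% and 20.2% of all genes. AGPAT2, an acyltransferase, had a log2 fold change of -0.94 (adjusted p = 1.18e-11) and LPIN2, a relative of LPIN1, of 0.72 (adjusted p = 3.45e-11) in CKI against Baituling. Of 6 genes of fatty acid oxidation 4 were higher and 2 lower in CKI than in Baituling, 4 and 1 in Kushen than in Baituling, and 0 and 3 in CKI than in Kushen, with 0 higher also by DESeq2 and at an unadjusted p under 0.05 (median 0.22 in CKI against Baituling). HADHB, a subunit of the mitochondrial trifunctional protein, and ACADVL, an acyl-CoA dehydrogenase, were both above Baituling in CKI (0.50, adjusted p = 1.35e-09 and 0.50, adjusted p = 2.49e-08). The 2 lower genes were HADHA (-0.35, adjusted p = 3.27e-07) and ACADM (-0.45, adjusted p = 1.82e-07). With library totals, the 7 lists in the order given had 5, 8, 7, 5, 8, 3 and 4 genes higher and 1, 1, 1, 5, 3, 2 and 1 lower in CKI than in Baituling. Shares of all genes were not counted under library totals, where the median of all genes in this comparison was 0.32.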

How the data were processed

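The deposited table holds whole-number read counts per gene for 9 libraries of MDA-MB-231 cells, 3 per treatment. To make the counts, the authors trimmed reads with Trim Galore 0.3.7 and aligned them to hg19 with STAR 2.5.3a, per the submitters' processing notes. The counting program and annotation are not given in the sources used here, and the reads carry no strand. Each value was analysed as deposited.

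Of 24566 rows, 222 that repeated an Ensembl gene with identical counts were left out, leaving 24344 genes. GENCODE named 23742 of them, RefSeq 558, and 44 stayed unnamed. A count filter (edgeR filterByExpr, minimum count 10, minimum total 15) kept 14195 genes and removed 10149. Libraries were scaled by TMM. Group means were fitted to all 9 libraries with the quasi-likelihood test of edgeR 4.0.16 in R 4.3.3 (two-sided, Benjamini-Hochberg adjustment over all genes tested, threshold 0.05), and the common biological coefficient of variation was 4.53%. The log2 fold change of 1 is a 2-fold difference, and with 3 against 3 libraries an exact permutation test could not go below 0.1, so no single-gene permutation is given. P-values set the difference between treatments against the spread between libraries of the same treatment, estimated from all 9 libraries. All libraries come from a single cell line, so the p-values do not speak for other lines or for repeats of the experiment. The fit was tested on simulated data with known changes.

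CPM divided by the joined length of all GENCODE exons of a gene gave levels per kilobase. Exon overlaps and gene positions are from GENCODE on GRCh37. Promoter windows are from RefSeq on GRCh38.p14 and no coordinate was converted. Alternatives were library totals or RLE scaling, no filter or at least 10 counts in every library, a fit of only the 2 groups compared, replicate number as a block, DESeq2 1.42.0, and leaving out each library. Values in every library are given for the genes of each arm with 1 of the 2 smallest adjusted p in any comparison and for all regulators, and of each list of other genes the 2 with the smallest adjusted p in CKI against Baituling are named. ABCA1, HADHA and ACADM were named in addition, for going the other way, after their values were seen. The genes, lists and rules were chosen with earlier results of these data known.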

Additional observations from a re-analysis of the deposited data

How the results depend on the processing

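Library totals in place of TMM moved the median log2 fold change of the 32 genes from -0.25 to -0.1702 in CKI against Kushen, from -0.36 to -0.0777 in CKI against Baituling and from -0.05 to 0.1586 in Kushen against Baituling, and they left 1 gene, HMGCS1, past a log2 fold change of -1 in CKI against Baituling in place of 4. For the summed levels of the arms, library totals were added after the data were seen. Changes of sign in single differences were counted only where the adjusted p was under 0.05 in either fit. Those under library totals were MSMO1 (0.0991), HSD17B7 (0.0448), INSIG1 (0.1624), ELOVL6 (0.1434) and SCD (0.0439) in CKI against Baituling, and FDFT1 (0.1626), LSS (0.0024), CYP51A1 (0.1948), SREBF2 (0.0634) and LPIN1 (0.1546) in Kushen against Baituling. Among all genes past the fold, the share higher went from 58.6% to 80% in CKI against Baituling, from 55.8% to 74.6% in Kushen against Baituling and from 89.6% to 93.3% in CKI against Kushen. Asking for 10 counts in every library lowered the number of all genes past the fold from 270 to 102 in CKI against Kushen, from 2715 to 1808 in CKI against Baituling and from 2162 to 1415 in Kushen against Baituling, with fewer genes tested. Among the single-gene values recomputed under an alternative, 1475 kept their side of the threshold, 38 lost it, 13 gained it and 10 changed sign as counted above. Library totals alone gave 10 of the changes of sign, 8 of the losses and 7 of the gains. Leaving out single libraries gave 22 of the losses and 3 of the gains. A change of sign where neither fit passed the adjusted p counts among the 1475. Leaving out 1 library gave 21 to 25, 28 to 30 and 24 to 26 genes past the adjusted p in the 3 comparisons, with medians of -0.26 to -0.24, -0.39 to -0.35 and -0.08 to -0.03. Shares of all genes past the adjusted p were counted only in the main fit. They were 19.6% higher and 20.2% lower, 39.1% and 37%, and 35.6% and 36.1% in these comparisons.

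With replicate number as a replicate block, 24, 29 and 25 of the 32 genes passed the adjusted p in place of 25, 30 and 25, and the calls lost were STARD4 in CKI against Kushen (adjusted p = 0.0571) and TM7SF2 in CKI against Baituling (adjusted p = 0.063). Shares of all genes were not counted with the block. Deviations of libraries with the same number correlated at -0.075 to 0.123 over genes, highest for replicate 1 of CKI and Kushen. Libraries with different numbers were not compared in this way, so whether the numbers pair the samples was not tested. Depth did not limit these genes, whose lowest count was 347, but 3 libraries per treatment, unstranded counts and the lack of an untreated group here limit what the differences describe.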
